A study of Homo sapiens with 12 samples.

Results

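The replication-dependent histone genes were followed in polyA-selected RNA of 2 human melanoma cell lines. These were the genes named HIST1H, HIST2H, HIST3H or HIST4H, without the names that end as pseudogenes, and they numbered 74 of the 58307 rows that name a gene. Of these, 6 encode the linker histone H1, 17 encode H2A, 22 encode H2B, 14 encode H3 and 15 encode H4, and no symbol was repeated. The 12 libraries came from A375 and SK-MEL-28, both established lines, in 4 groups of 3: A375 etoposide, A375 etoposide + rapamycin, SK-MEL-28 etoposide and SK-MEL-28 etoposide + rapamycin. Etoposide, a topoisomerase II poison, was thus present in every group, there was no untreated group, and rapamycin, an inhibitor of mTOR complex 1, was the only difference within a line. The study describes the replicates of its RNA sequencing as biological. Dose and duration were not given for these libraries. Library totals ran from 28189501 to 32499337 counts. Of 7 pigment cell genes listed, SOX10 (385 CPM over all libraries) and S100B (83.0 CPM) were well expressed in these melanoma lines. TYR (0.0328), MLANA (0.851), DCT (1.14) and PMEL (2.01) were near 0, and the level of MITF is not given here. CPM is each count as a share of its TMM-scaled library total, times a constant.

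Histones are the proteins around which DNA is wrapped: H3 and H4 form a tetramer, H2A and H2B join it as dimers, and H1 binds the linker DNA between nucleosomes. The replication-dependent genes lie in clusters, mostly lack introns and are transcribed mainly in S phase, when new DNA must be packaged. Their messages normally end in a conserved stem-loop in place of a polyA tail, which is bound by SLBP and cut by the U7 small nuclear RNP, so a polyA-selected library captures chiefly the messages that were polyadenylated at a downstream site or that carry short A tails. Fewer cells that make such a message and less message per cell cannot be told apart in bulk RNA.

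The stem-loops are shown because they define the 3′ ends that polyA selection is expected to miss. The genomic sequence after the stop codon was searched on the sense strand, over 300 bases, for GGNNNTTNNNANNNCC in which the 6 outer bases on each side can pair (G with T allowed), which leaves a loop of 4 bases. All 70 members annotated as protein coding in GENCODE 44 (GRCh38) held it, 23 to 68 bases after the stop codon (median 36), against 93 of all 19061 genes with a MANE stop codon (0.488%), of which 23 were no member. The sequences below are from the GRCh38 genome, 5′ to 3′ on the gene's own strand, with the 16 bases of stem and loop in capitals. They stand for the most abundant members of each class, for those whose level differed between groups and, with HIST1H4C, for a member with almost no counts.
HIST1H1C (chr6:26055739-26055764, minus strand): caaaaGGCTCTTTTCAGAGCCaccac
HIST2H2AA3 (chr1:149842218-149842243, minus strand): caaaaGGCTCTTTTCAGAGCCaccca
HIST1H2AC (chr6:26124664-26124689, plus strand): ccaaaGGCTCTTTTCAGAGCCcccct
HIST1H2BK (chr6:27146361-27146386, minus strand): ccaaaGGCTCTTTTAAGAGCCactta
HIST2H2BE (chr1:149886183-149886208, minus strand): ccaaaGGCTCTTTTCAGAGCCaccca
HIST1H2BC (chr6:26123467-26123492, minus strand): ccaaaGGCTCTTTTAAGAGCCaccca
HIST1H2BJ (chr6:27132316-27132341, minus strand): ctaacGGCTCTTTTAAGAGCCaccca
HIST1H3E (chr6:26225591-26225616, plus strand): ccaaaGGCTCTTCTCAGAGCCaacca
HIST2H3A (chr1:149853100-149853125, plus strand): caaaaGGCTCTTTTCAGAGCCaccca
HIST2H4A (chr1:149833027-149833052, plus strand): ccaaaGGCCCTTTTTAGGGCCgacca
HIST1H4C (chr6:26104312-26104337, plus strand): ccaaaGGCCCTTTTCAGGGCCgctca

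The stem-loop varied little over the family. There were 10 different cores of 16 bases, and the commonest, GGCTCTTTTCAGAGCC, was shared by 40 members, of which 12 had a mean of at least 100 counts. The core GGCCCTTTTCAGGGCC occurred in 10 members, all of class H4. HIST2H4A, HIST2H4B, HIST1H4I and HIST1H4K shared a further core, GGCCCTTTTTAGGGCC, and 3 of these 4 had a mean of at least 100 counts. HIST1H4C, whose core was that of HIST1H4H, had a mean of 0.0362 CPM, whereas HIST1H4H had 8.10.

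A few members held most of the signal. The 6 genes with a mean of at least 1000 counts per library were HIST2H2AA4, HIST2H2AA3, HIST1H2AC, HIST1H1C, HIST1H2BK and HIST2H2BE, and the 10 most abundant members held 75.0% of all counts of the family. Another 17 members had a mean of 100 to 1000 counts and 17 had 10 to 100. The remaining 34 were under 10, 6 of them at 0 in all 12 libraries, where a count of 0 allows up to 3 counts, or 0.0923 to 0.106 CPM in a library, by counting error only. By class, H2A held 35.8% of the family's counts, H2B 28.9%, H4 17.5%, H1 9.11% and H3 8.77%. Within classes the signal was again narrow: HIST1H1C alone made 92.4% of class H1, HIST2H4A and HIST2H4B 73.1% of H4, and HIST2H2AA3 and HIST2H2AA4 59.6% of H2A. Per kilobase of annotated exon, the highest levels were 98.4 CPM for HIST2H2AA3 and HIST2H2AA4, 79.7 for HIST1H2BK, 56.4 for HIST1H1C, 20.2 for HIST1H4I and 17.2 for HIST2H3A, each the top of its class. Per kilobase of coding sequence HIST2H4A (105) exceeded HIST1H4I (26.0), and HIST1H3E (28.1) exceeded HIST2H3A (21.8), so the order within H4 and H3 depends on which length is used.

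**Figure D1:**
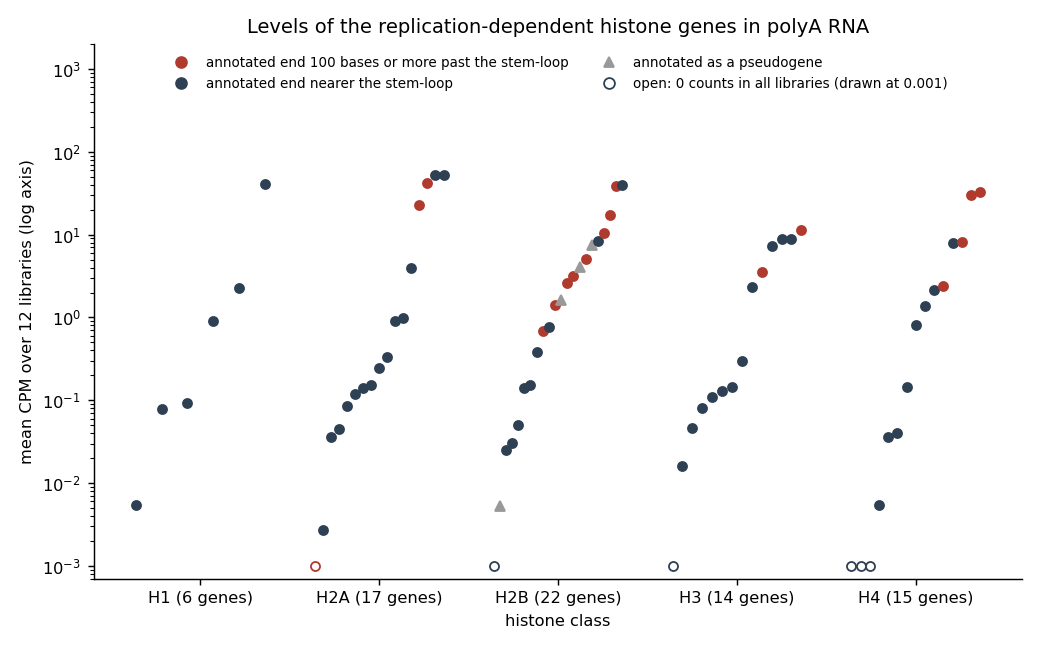
Mean level of each member over the 12 libraries (CPM, log axis) by histone class, ordered within a class from low to high. Red points have an annotated transcript end at least 100 bases past the stem-loop, dark points do not, grey triangles are annotated as pseudogenes, and open points had 0 counts everywhere. The members span from 0 to 52.5 CPM, and each class has a few members above 1 CPM and a long tail below.

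Whether a transcript end beyond the stem-loop is annotated went with the level. GENCODE 44 places an end at least 100 bases past the stem-loop for 17 members, among them HIST2H2BE, HIST1H2AC, HIST1H2BD, HIST1H2BC, HIST1H2BJ, HIST2H4A and HIST1H3E. The median level was 8.10 CPM for these 17 and 0.143 CPM for the other 53 coding members, or 3.75 and 0.303 CPM per kilobase of exon. A mean of at least 10 counts was reached by 16 of the 17 and by 21 of the 53. Exceptions stood on both sides. HIST2H2AA3, HIST2H2AA4, HIST1H1C, HIST1H2BK, HIST2H3A and HIST2H3C were abundant although their annotation stops within 5 bases of the stem-loop, and HIST1H2AA has a distant annotated end yet was at 0. Annotation is itself built from transcripts seen in RNA, so these comparisons are given as a description.

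The way reads were assigned bears on all of these levels. Of the 74 members, 43 sat on loci that StringTie assembled from the reads and 31 on annotated identifiers, and only 3 of the 31 (HIST1H2BN, HIST1H2BF and HIST1H2BH) had a mean of at least 10 counts. An annotated overlap with another gene was present for 34 members, 20 of them among the 40 with a mean of at least 10 counts, and whether counting used strand is not stated. Of the members with a mean of at least 10 counts, 3 shared a locus with another name, so their counts are uncertain. HIST1H3D was among them and shared its assembled locus with HIST1H2AD. Coding sequences were identical over 390 bases for HIST2H2AA3 and HIST2H2AA4, over 408 for HIST2H3A and HIST2H3C and over 309 for HIST2H4A and HIST2H4B. Their reads had been split almost evenly, 18778 and 18811 counts in all libraries for the first pair, 3185 and 3139 for the second, 11609 and 10875 for the third, and each pair is better read as 1 measurement. HIST1H4J and HIST1H4K also shared an identical coding sequence. HIST2H2BC, HIST2H2BA, HIST2H2BB and HIST3H2BA are annotated as pseudogenes under their current names.

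H2A and H2B genes often face each other across a shared promoter. Among the members were 13 such pairs with starts 170 to 289 bases apart. Both partners had a mean of at least 10 counts in 5 pairs, only 1 partner in 6 (the H2B in 4 and the H2A in 2), and neither in 2. The contrast was wide in some pairs: HIST1H2BK had 39.4 CPM and its partner HIST1H2AH 0.120, HIST2H2BE had 38.7 and HIST2H2AC 0.242, and HIST1H2AC had 41.5 and HIST1H2BC 5.04. A shared promoter region thus did not always go with like levels in this RNA. The H2B partner of HIST2H2AA4, HIST2H2BC, is annotated as a pseudogene.

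RefSeq promoters (GRCh38.p14, 250 bases before to 50 after the start) were matched for 65 members and searched for 3 motifs: TATAAA on the sense strand, and CCAAT and the octamer ATTTGCAT on both strands, none of which holds another. TATAAA was found in 58.5% of the members and in 7.71% of the promoters of all 27305 genes, CCAAT in 84.6% and 35.7%, and the octamer in 40.0% and 1.80%. The octamer, a site known for the OCT1 factor, was held by 14 of 18 H2B and 11 of 16 H2A promoters, 1 of 12 H3 and 0 of the H1 and H4 promoters. The H3 match was for HIST1H3D, whose promoter stretch is the same as that of HIST1H2AD and is thus also counted under H2A. CCAAT was in every H1, H2A, H2B and H3 promoter and in 3 of 13 H4 promoters. A match is a description and not a binding site. The promoters of HIST1H2BJ and HIST2H4A are printed as members that moved in opposite directions with rapamycin in SK-MEL-28. Both run 5′ to 3′ on the gene's strand with all matches in capitals, reverse-strand matches reading ATTGG for CCAAT, and HIST2H4A holds none of the 3 motifs.
HIST1H2BJ (chr6:27132746-27133045, minus strand): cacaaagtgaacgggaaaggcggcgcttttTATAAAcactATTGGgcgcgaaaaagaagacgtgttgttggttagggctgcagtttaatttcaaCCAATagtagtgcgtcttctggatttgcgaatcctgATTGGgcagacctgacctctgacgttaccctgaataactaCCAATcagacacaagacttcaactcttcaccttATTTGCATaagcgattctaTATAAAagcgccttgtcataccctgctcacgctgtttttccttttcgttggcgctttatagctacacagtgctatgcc
HIST2H4A (chr1:149832407-149832706, plus strand): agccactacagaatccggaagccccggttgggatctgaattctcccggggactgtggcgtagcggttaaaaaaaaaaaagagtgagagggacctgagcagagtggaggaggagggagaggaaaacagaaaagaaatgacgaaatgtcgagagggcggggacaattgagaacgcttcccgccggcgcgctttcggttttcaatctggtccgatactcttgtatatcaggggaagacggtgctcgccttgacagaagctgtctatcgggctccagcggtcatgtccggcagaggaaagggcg

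Rapamycin left the summed level of the family where it was, while the class H4 sum lay higher and the H2B sum lower with rapamycin in both lines. In A375 all members together summed to 559 ± 15.3 CPM (SD, n = 3) with etoposide and 568 ± 24.0 CPM with etoposide + rapamycin, a log2 ratio of 0.024 against a replicate spread of 0.051. In SK-MEL-28 the sums were 419 ± 21.5 and 419 ± 10.0 CPM, a log2 ratio of -0.00073 against a spread of 0.057. The family made 0.0565% of the counts of an A375 etoposide library and 0.0425% of an SK-MEL-28 one. Class H4 went from 87.8 ± 4.05 to 99.2 ± 2.50 CPM in A375 and from 69.4 ± 5.95 to 86.9 ± 3.24 CPM in SK-MEL-28, without overlap between the groups. Class H2B went from 164.8 ± 8.12 to 155.1 ± 0.980 CPM and from 129.5 ± 2.80 to 118.0 ± 3.26 CPM, also without overlap. These sums carry no test. Of all genes tested, 42.6% in A375 and 35.9% in SK-MEL-28 did not overlap between the groups, both directions counted. The H4 difference lay in HIST2H4A and HIST2H4B, since the other 13 H4 genes summed to 22.7 ± 0.706 and 21.0 ± 0.194 CPM in A375 and to 25.1 ± 3.53 and 23.4 ± 0.563 CPM in SK-MEL-28. Without HIST1H2BC, HIST1H2BJ and HIST2H2BE the other 19 H2B genes summed to 104.9 ± 5.86 and 102.9 ± 2.47 CPM in A375 and 90.6 ± 3.58 and 88.4 ± 2.07 CPM in SK-MEL-28. The genes set aside in both classes were those that had moved in these data, so remainders without the class difference follow from the choice. In A375 the H4 remainder lay lower with rapamycin, opposite to the class sum, and did not overlap (20.8 to 21.1 against 21.9 to 23.2 CPM). In SK-MEL-28 the H4 remainder overlapped between the groups. Ranges of H1, H2A and H3 overlapped between treatments in both lines.

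**Figure D2:**
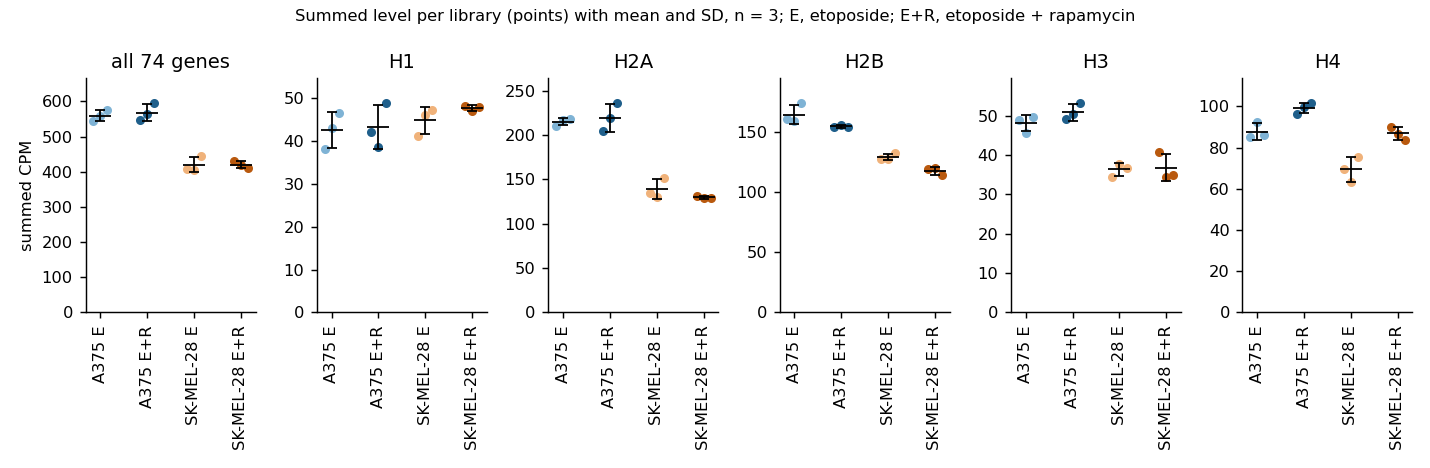
Summed CPM of all 74 members and of each class, by library (points), with mean and SD of 3 libraries per group. E is etoposide and E+R etoposide + rapamycin. The family total is level with treatment in both lines and lower in SK-MEL-28, H4 lies higher with rapamycin (86.9 against 69.4 CPM in SK-MEL-28), and H2B lies lower.

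In A375, 40 members were abundant enough to test, and none was called, that is, had a Benjamini-Hochberg adjusted p below 0.05 in the quasi-likelihood test of edgeR and a change of more than 1.5-fold, where 5.89% of all 18844 genes tested were called in either direction. DESeq2 also called 0. An unadjusted edgeR p under 0.05 was reached by 9 members, 5 higher and 4 lower. The share of all genes at that level was not counted. It is at least 14.3% (higher) and 13.8% (lower), the shares that passed the stricter adjusted p. The count is therefore no result about the family. Without A375 etoposide replicate 2, HIST1H3A, too low for the main test, was called lower (log2 fold change -2.77, edgeR adjusted p = 0.0337). The gene passed the count filter because that library was dropped, so nothing is drawn from this call. By the adjusted p alone 4 members rose (14.3% of all genes did) and 0 fell (13.8%). The 4 were HIST2H4A, HIST2H4B, HIST2H3A and HIST2H3C, which form 2 pairs of copies. The groups of libraries did not overlap for 25% of the members, 5 higher and 5 lower, against 42.6% of all genes.

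The copies HIST2H4A (chr1:149832657-149839767, plus strand) and HIST2H4B (chr1:149854045-149861159, minus strand) encode histone H4. HIST2H4A was at 32.2, 35.5 and 32.9 CPM in the A375 etoposide libraries and at 38.5, 40.0 and 41.1 CPM with rapamycin. HIST2H4B was at 29.8, 33.8 and 31.2 CPM and at 36.8, 38.8 and 39.3 CPM. In both copies every rapamycin library lay above every etoposide library of A375. The log2 fold changes were 0.25 (SE, standard error, 0.066, adjusted p = 0.0120) and 0.28 (SE 0.070, adjusted p = 0.00930) by edgeR, which are 19.3% and 21.7% more, and 0.27 for the copies summed (adjusted p = 0.00313).

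HIST2H3A (chr1:149852608-149853125, plus strand) and HIST2H3C (chr1:149840687-149841208, minus strand) encode histone H3. HIST2H3A was at 11.1, 8.97 and 9.45 CPM with etoposide in A375 and at 12.8, 13.1 and 12.8 CPM with rapamycin, again with no overlap. Its log2 fold change was 0.40 (SE 0.11, edgeR adjusted p = 0.0161), and that of HIST2H3C was 0.38 (SE 0.11, adjusted p = 0.0219). The call of HIST2H3A at the adjusted p alone was lost without A375 etoposide replicate 2 (edgeR adjusted p = 0.0606), without A375 etoposide replicate 3 (0.0601) or without A375 etoposide + rapamycin replicate 2 (0.0506), and that of HIST2H3C without any of these (0.0802, 0.0779 and 0.0688) or without A375 etoposide + rapamycin replicate 3 (0.0549), and also with every gene of at least 1 count kept (0.0560). The copies are uncertain as separate genes, and summed with HIST2H3D, which differs by 12 of 408 coding bases, they had a log2 fold change of 0.35 (edgeR adjusted p = 0.0107).

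In SK-MEL-28, 2 of 41 members were called, both H2B genes and both lower with rapamycin, where 4.99% of all 18897 genes were called in either direction. By the adjusted p alone 2 members rose (8.83% of all genes) and 3 fell (10.1%). Libraries did not overlap between the groups for 34.1% of the members, 5 higher and 9 lower, against 35.9% of all genes.

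HIST1H2BJ (chr6:27125897-27132795, minus strand) encodes histone H2B and was low, at 2.06, 1.79 and 1.85 CPM in the SK-MEL-28 etoposide libraries and 0.581, 0.50 and 1.01 CPM with rapamycin. The log2 fold change was -1.44 (SE 0.31, edgeR adjusted p = 0.00568), the largest in size among the members tested in this line, and the adjusted p stayed at or under 0.0246 in every alternative run. Its partner across the shared promoter, HIST1H2AG, had a log2 fold change of -0.16 (SE 0.18, edgeR adjusted p = 0.598). In A375 HIST1H2BJ was at 1.11, 1.58 and 2.28 CPM with etoposide and 1.86, 0.841 and 1.41 CPM with rapamycin, overlapping, with a log2 fold change of -0.27 (SE 0.34, edgeR adjusted p = 0.605).

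HIST1H2BC (chr6:26086317-26123926, minus strand) is a further H2B gene, whose long annotated model overlaps 4 other annotated genes. It was at 3.92, 5.13 and 4.62 CPM in SK-MEL-28 with etoposide and 2.90, 3.25 and 2.80 CPM with rapamycin, with a log2 fold change of -0.61 (SE 0.17, edgeR adjusted p = 0.0228). The call rested on single libraries: the adjusted p was 0.0907 without SK-MEL-28 etoposide replicate 2, 0.0672 without SK-MEL-28 etoposide replicate 3, 0.0612 without SK-MEL-28 etoposide + rapamycin replicate 1 and 0.0804 without SK-MEL-28 etoposide + rapamycin replicate 3. With every gene of at least 1 count kept, it was 0.0608. A375 libraries were at 7.24, 6.36 and 7.48 CPM and at 5.18, 5.86 and 5.74 CPM, lower with rapamycin and not overlapping, with a log2 fold change of -0.32 (SE 0.13, edgeR adjusted p = 0.0872).

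HIST2H2BE (chr1:149884459-149886682, minus strand), the most abundant H2B gene with an annotated distant end, fell in SK-MEL-28 by the adjusted p alone. Its levels were 33.3, 32.4 and 31.4 CPM with etoposide and 24.9, 29.3 and 23.4 CPM with rapamycin. The log2 fold change was -0.33 (SE 0.087, edgeR adjusted p = 0.0197), and the adjusted p rose to 0.0669 without SK-MEL-28 etoposide replicate 1, 0.0519 without SK-MEL-28 etoposide replicate 2, 0.0680 without SK-MEL-28 etoposide + rapamycin replicate 1 and 0.0885 without SK-MEL-28 etoposide + rapamycin replicate 3. A375 had 50.8, 50.1 and 52.7 CPM and 46.5, 47.3 and 41.9 CPM, again lower and not overlapping, with a log2 fold change of -0.17 (SE 0.061, edgeR adjusted p = 0.0503).

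The H4 copies also rose in SK-MEL-28. HIST2H4A was at 23.0, 21.7 and 24.7 CPM with etoposide and 35.2, 32.4 and 31.6 CPM with rapamycin, and HIST2H4B was at 21.1, 20.3 and 22.2 CPM and at 31.3, 30.7 and 29.3 CPM. All rapamycin libraries stood well clear of the etoposide libraries. The log2 fold changes were 0.51 (SE 0.080, edgeR adjusted p = 0.000662) and 0.52 (SE 0.075, adjusted p = 0.000398), which are 42.7% and 43.4% more and stay under the fold threshold. Summed, the copies had 0.52 (edgeR adjusted p = 6.27e-05). HIST2H3A and HIST2H3C were at 0.23 each (edgeR adjusted p = 0.313 and 0.288) and overlapped between the groups.

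**Figure D3:**
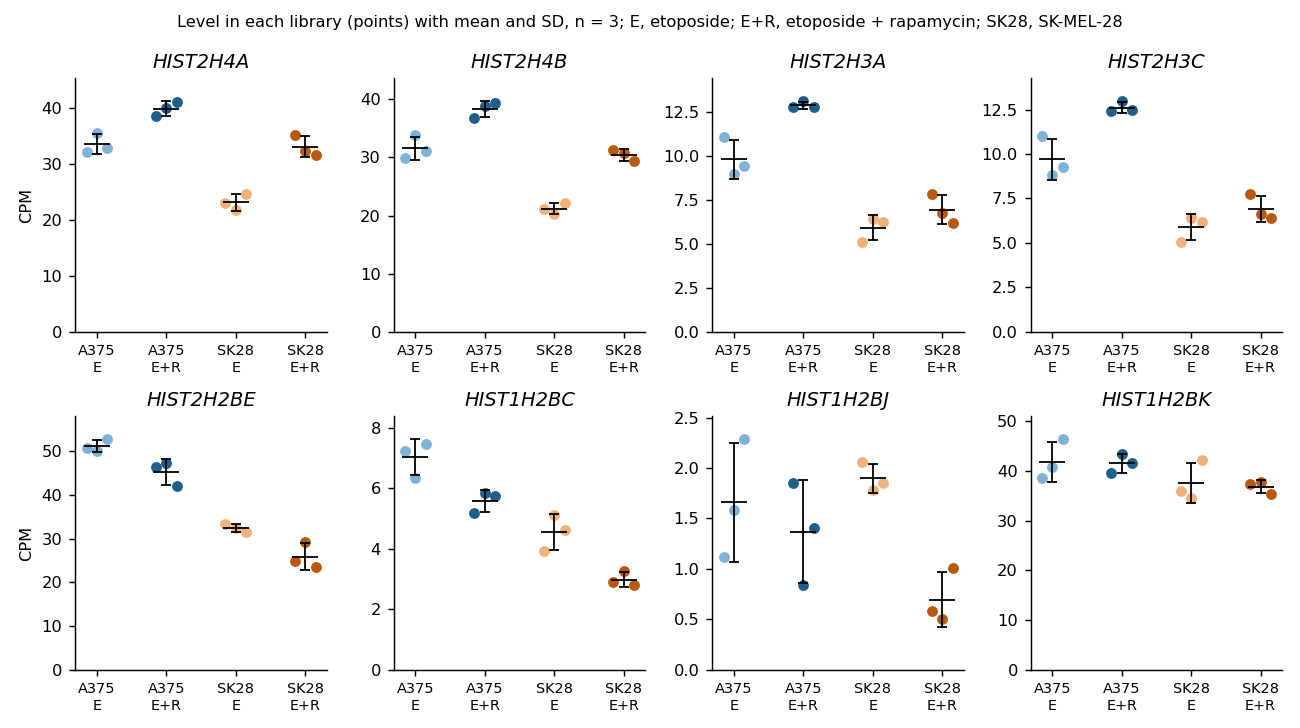
Level (CPM, axes from 0) of 8 members in each library (points), with mean and SD of 3 libraries per group. HIST2H4A and HIST2H4B lie higher with rapamycin in both lines, HIST2H2BE and HIST1H2BC lie lower, HIST1H2BJ is lower in SK-MEL-28 (0.50 to 1.01 against 1.79 to 2.06 CPM), and HIST1H2BK overlaps throughout.

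Other abundant members did not pass the test. HIST1H1C, a linker histone gene, had a log2 fold change of 0.017 in A375 (SE 0.092) and 0.064 in SK-MEL-28 (SE 0.068). HIST1H2BK had -0.0061 (SE 0.074) and -0.031 (SE 0.079), and HIST1H2AC had -0.098 (SE 0.064) and 0.023 (SE 0.083). HIST2H2AA3, an H2A gene, had 0.055 (SE 0.064) and -0.20 (SE 0.081), with adjusted p of 0.576 and 0.105 by edgeR. In SK-MEL-28 it was at 37.0, 39.5 and 45.8 CPM with etoposide and at 36.7, 36.3 and 33.8 CPM with rapamycin, lower and not overlapping. The 3 most abundant H1 genes had positive values in both lines and none passed the test. Among H2B genes 9 of 14 tested were negative in A375 and 11 of 15 in SK-MEL-28. Over all tested members the median log2 fold change was 0.0086 (A375) and -0.062 (SK-MEL-28), against -0.0051 and 0.0053 over all genes tested.

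**Figure D4:**
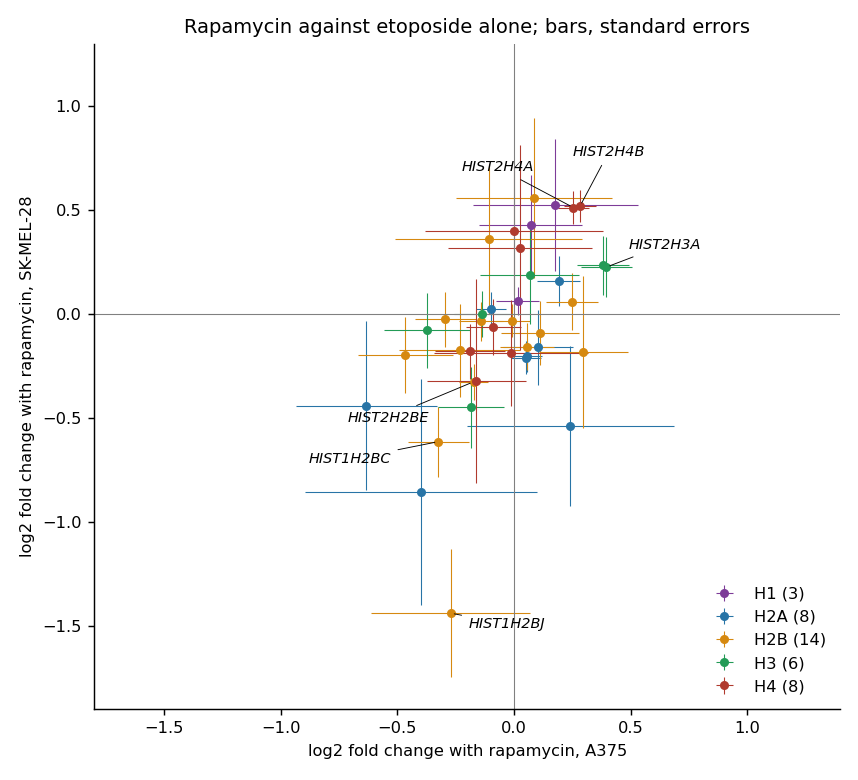
Log2 fold change with rapamycin in A375 (horizontal) and SK-MEL-28 (vertical) for the 39 members tested in both lines, coloured by class, with SEs as bars. The H4 copies lie at 0.25 and 0.51 (HIST2H4A) and 0.28 and 0.52 (HIST2H4B), and HIST1H2BJ lies at -0.27 and -1.44.

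The response to rapamycin was also compared between the lines by the interaction term of a fit of all 12 libraries. Of 42 members, 0 passed an adjusted p under 0.05 by edgeR, where 5.62% of all 20101 genes did, and DESeq2 also gave 0. An unadjusted edgeR p under 0.05 was reached by 6 members. The share of all genes at that level is at least 5.62% but was not counted, so nothing is drawn from it. The difference in log2 fold change (SK-MEL-28 minus A375) was -1.16 for HIST1H2BJ (SE 0.49, adjusted p = 0.185), 0.27 for HIST2H4A (SE 0.097, adjusted p = 0.124) and 0.24 for HIST2H4B (SE 0.094, adjusted p = 0.147) by edgeR. A difference between the lines was therefore not detected for HIST1H2BJ, although SK-MEL-28 alone had a call, nor for either H4 copy.

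Genes that work with histones were counted alongside. A list was made of 5 members with a polyadenylated message known from the literature: HIST1H1C, HIST1H2AC, HIST1H2BD, HIST1H2BK and HIST2H2BE. It need not be complete, since others, such as HIST1H2BJ and HIST1H2BC, also have an annotated end well past the stem-loop. Of these 5, 0 were called in either line, against a share of 5.89% (A375) or 4.99% (SK-MEL-28) over all genes. HIST2H2BE fell in SK-MEL-28 by the adjusted p alone. For the lists that follow, the adjusted p alone was passed by 14.3% (higher) and 13.8% (lower) of all genes in A375 and by 8.83% and 10.1% in SK-MEL-28. Replacement and variant histone genes mostly end in an ordinary polyA tail and are made outside S phase too. By the adjusted p alone 7 of 11 rose and 1 fell in A375, and 7 rose in SK-MEL-28, and in either line the call at the fold threshold was H1FX, a linker histone variant (log2 fold change 0.68, SE 0.061, adjusted p = 7.97e-06 in A375 and 0.77, SE 0.064, adjusted p = 4.44e-06 in SK-MEL-28 by edgeR). Their summed level was 1661 and 1918 CPM in A375 and 1296 and 1536 CPM in SK-MEL-28, well above that of the 74 members. H3F3B, which encodes H3.3, rose by 0.17 in A375 (SE 0.043, adjusted p = 0.0110) and 0.23 in SK-MEL-28 (SE 0.049, adjusted p = 0.00486) on the log2 scale.

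Most S-phase genes outside the family rose. In A375 14 of 15 rose by the adjusted p alone (14.3% of all genes did) and 8 passed the fold threshold too (5.89% in either direction), and in SK-MEL-28 10 rose (8.83%) and 3 passed (4.99%). Those called in both lines were MCM5 and MCM7, subunits of the replicative helicase, and CDT1, which loads it. MCM7 had log2 fold changes of 0.92 (SE 0.045) and 0.67 (SE 0.066), with edgeR adjusted p of 9.24e-08 and 1.79e-05. SLBP, which binds the stem-loop, had log2 fold changes of -0.026 (SE 0.058, adjusted p = 0.782) and 0.095 (SE 0.057, adjusted p = 0.280), and NPAT, the coactivator of histone gene transcription, had 0.049 (SE 0.091, adjusted p = 0.737) and 0.083 (SE 0.083, adjusted p = 0.544), all by edgeR. Among 23 histone message processing genes, 4 rose and 4 fell in A375 and 3 rose in SK-MEL-28 by the adjusted p alone, each near the share of all genes that did so. UPF1, needed for decay of histone messages, rose in both (0.39 and 0.30, SEs 0.048 and 0.055, adjusted p = 9.42e-05 and 0.00196). Among 20 histone chaperone genes 9 rose (14.3% of all genes did) and 2 fell (13.8%) in A375 and 3 rose (8.83%) in SK-MEL-28, with NAP1L1 at 0.39 and 0.54 (SEs 0.044 and 0.056, adjusted p = 4.82e-05 and 2.60e-05).

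Under etoposide alone, the family was lower in SK-MEL-28 than in A375. Of 42 members tested in the fit of all 12 libraries, 11 were called lower in SK-MEL-28 (7.16% of all genes were) and 0 higher (5.39%). By the adjusted p alone 18 were lower (16.7% of all genes) and 1 higher (15.1%), the H4 gene HIST1H4H, whose log2 fold change was 0.40 (edgeR adjusted p = 0.0459). The adjusted p of HIST1H4H exceeded 0.05 without A375 etoposide replicate 1 (0.158) or 3 (0.0784), A375 etoposide + rapamycin replicate 1 (0.0535), SK-MEL-28 etoposide replicate 1 (0.156) or 3 (0.0986) or SK-MEL-28 etoposide + rapamycin replicate 3 (0.0508), and with every gene of at least 1 count kept (0.0904). Groups did not overlap for 19 lower and 3 higher members, against 22.4% and 20.9% of all genes. The median log2 fold change was -0.38 over the members and -0.0045 over all genes tested. Since these groups share the etoposide libraries with the rapamycin comparisons, the values are not independent of those above.

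The 11 genes came from 4 classes, and 8 calls remained with near-identical copies summed. In class H3, HIST1H3D had the largest difference of the genes called (log2 fold change -1.13, SE 0.18, edgeR adjusted p = 9.14e-05). It was at 10.1, 10.1 and 12.6 CPM in A375 and 5.10, 5.49 and 4.44 CPM in SK-MEL-28. Its assembled locus is shared with HIST1H2AD, so the difference may not belong to HIST1H3D alone. HIST2H3A was at 5.10, 6.42 and 6.26 CPM in SK-MEL-28 against the 8.97 to 11.1 CPM of A375 (-0.73, SE 0.12, edgeR adjusted p = 0.000214). HIST2H3C (-0.72) and HIST2H3D (-0.76) completed the class. In every H3 gene called, the lowest A375 etoposide library lay above the highest of SK-MEL-28.

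Among H2A genes the calls were HIST2H2AA3, HIST2H2AA4 and HIST3H2A. HIST2H2AA3 was at 64.6, 66.6 and 65.4 CPM in A375 and 37.0, 39.5 and 45.8 CPM in SK-MEL-28, with no overlap (log2 fold change -0.68, SE 0.076, edgeR adjusted p = 2.45e-06). HIST3H2A, from the small cluster on chromosome 1, had -0.71 (SE 0.11, edgeR adjusted p = 0.000113). HIST1H2AC had -0.51 (SE 0.076, edgeR adjusted p = 5.55e-05), under the fold threshold.

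Class H2B gave HIST2H2BE (-0.66, SE 0.074, edgeR adjusted p = 2.59e-06), HIST1H2BC (-0.62, SE 0.14) and HIST3H2BB (-0.95, SE 0.31), and H1 gave HIST1H1E. HIST3H2BB was at 2.75, 3.26 and 3.69 CPM in A375 and 2.58, 1.55 and 0.911 CPM in SK-MEL-28. Its edgeR adjusted p of 0.0261 became 0.0618 without A375 etoposide replicate 2, 0.0903 without A375 etoposide replicate 3, 0.0808 without SK-MEL-28 etoposide replicate 2, 0.119 without SK-MEL-28 etoposide replicate 3 and 0.0579 with every gene of at least 1 count kept. HIST1H1E, a linker histone gene at 2.65, 3.09 and 2.39 CPM against 1.77, 1.69 and 1.18 CPM, had a log2 fold change of -0.81 (SE 0.23, edgeR adjusted p = 0.0106), which became 0.0527 without A375 etoposide replicate 2 and 0.0597 without SK-MEL-28 etoposide replicate 3. HIST1H2BC dropped under the fold threshold without A375 etoposide replicate 3 (-0.57) or SK-MEL-28 etoposide replicate 1 (-0.53), and HIST2H3D was not called without the latter. No H4 gene was called, and HIST2H4B (-0.58) and HIST2H4A (-0.54) fell just short of the fold threshold. HIST1H1C (0.12), HIST1H2BK (-0.16), HIST1H2BD (-0.10) and HIST1H3E (0.29) did not pass the test.

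**Figure D5:**
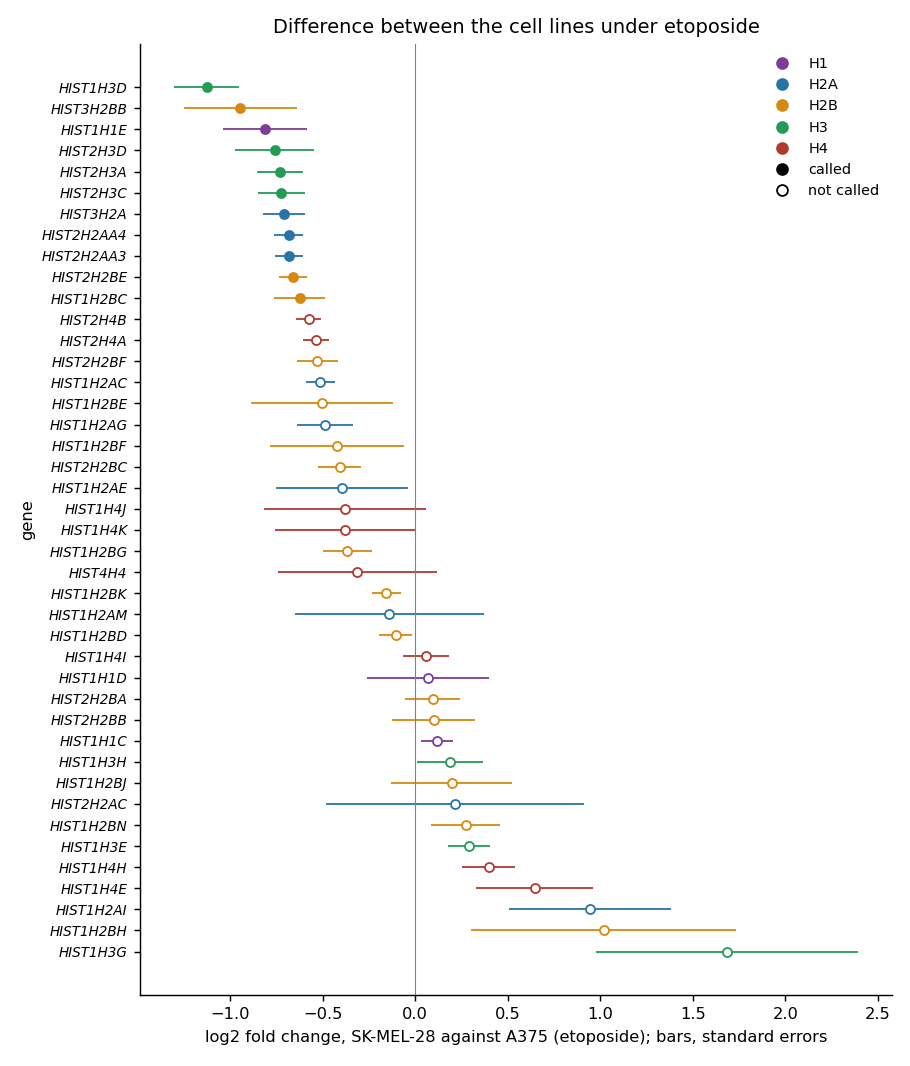
Log2 fold change of SK-MEL-28 against A375 under etoposide for the 42 members tested, ordered by size and coloured by class, with SEs as bars. Filled points were called, 11 in all and all lower in SK-MEL-28, from HIST1H3D at -1.13 to HIST1H2BC at -0.62. The count of HIST1H3D is uncertain, as its locus is shared.

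The precision behind these values followed the level. The SD between replicates was 6.61% of the mean (median over members and groups) for members with at least 1000 counts, 8.77% for those with 100 to 1000 and 22.0% for those with 10 to 100. Among the last, HIST4H4, the H4 gene on chromosome 12, was at 3.20, 0.860 and 2.80 CPM in the SK-MEL-28 etoposide libraries and 2.13, 0.572 and 2.76 CPM with rapamycin, so that replicate 2 of each group stood far below the others. In all, 32 of the 74 members were too low for any of the main tests, so no difference in them was tested there. HIST1H3A, among the 32 with a mean of 4.25 counts, entered the test when some libraries were left out. In the cell line comparison it was called without A375 etoposide replicate 2. It was also called lower in SK-MEL-28 with each rapamycin library left out in turn (log2 fold change -3.06, edgeR adjusted p from 0.0211 to 0.0373). Those runs compare the same etoposide libraries, so they repeat a single comparison and are not separate support. HIST1H3A passed the count filter only because a library was dropped, so nothing is drawn from its calls.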

How the data were processed

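Polyadenylated RNA was enriched and sequenced from the 12 libraries. The authors aligned clean reads with HISAT2 to GRCh38 (hg38), estimated expression with StringTie and the Ensembl release 90 annotation, and deposited raw counts per gene row and library, with no normalization and no pooling. How coverage became counts, and whether strand was used, is not given in the sources used here. Another 5 rows without a gene name, 0.00099% to 0.0053% of the counts, were left out.

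Counts were tested with edgeR 4.0.16 in R 4.3.3 (filterByExpr with a minimum count of 10, TMM, glmQLFit and glmQLFTest), and p-values were adjusted by Benjamini-Hochberg across the whole table. Rapamycin was tested within each cell line separately. All 12 libraries were fitted together for the difference in response and for SK-MEL-28 against A375 under etoposide. Calls required an adjusted p below 0.05 and a change of more than 1.5-fold, and for the difference in response at the adjusted p alone. Standard errors (SE) were taken as |log2 fold change| over the root of F. Positions came from GENCODE 44, with 29 members matched by identifier and 45 by older symbol, and promoters from RefSeq.

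Members were chosen by their names, and members, lists and tests were chosen with earlier results of these data known. The members named were the 3 most abundant of each class, those called in both lines or in the difference, and the 3 largest calls of each comparison. The rule also named 3 genes of each list, list genes called in both lines, SLBP and NPAT. Of those, H1F0, H2AFY, SYMPK, NCBP2, SUPT16H, SSRP1, PCNA and MCM4 have no values printed, nor do MCM5 and CDT1. The list genes with printed values that passed the adjusted p all rose, while the list genes that fell are only counted. The other members in the text were named after their values were seen. Alternatives tried were RLE size factors, DESeq2 1.42.0, library totals, filters of 1 count in any or 10 in every library, near-identical copies summed, the replicate number as a block, the adjusted p alone, a fit of all libraries, and each library left out. No libraries had identical counts. On counts simulated with 200 genes changed 2-fold, edgeR recovered 199 with 4 false calls for rapamycin in A375 (18913 genes). It recovered 200 with 2 for rapamycin in SK-MEL-28 (19003 genes). For the difference in response it recovered 186 with 6 (19635 genes), and for the cell lines 196 with 1 (19646 genes). The genes changed were drawn from well-counted rows, with the same spread for every gene. Recovery for members of low count, whose replicates varied more, is therefore not described by these values.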

Additional observations from a re-analysis of the deposited data

How the results depend on the processing

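Rapamycin gave 0 called members in A375 and 2 in SK-MEL-28, or 4 and 5 without the fold threshold. It was 1 in SK-MEL-28 when every gene with at least 1 count was kept, and ran from 0 to 1 in A375 and from 1 to 2 in SK-MEL-28 as each library was left out. The difference in response gave 0 in each of its 19 alternatives. SK-MEL-28 against A375 gave 11 calls, 19 without the fold threshold, 8 with near-identical copies summed, and 9 to 13 as each library was left out. Summed levels stayed within the replicate spread under each alternative, with log2 ratios from -0.016 to 0.051 in A375 and from -0.038 to 0.043 in SK-MEL-28. The named members kept their direction wherever they were called: of their alternative values 1270 left the call as it was, 15 gained a call and 14 lost it.

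Same-numbered libraries of a line did not deviate together (correlations -0.030 to 0.021), so they were not treated as pairs. With the replicate number as a block the counts were 0, 2, 0 and 11, HIST1H4H no longer passed the adjusted p between the lines (0.0719), and not every library correlated best with its own number.

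The limits are the low level of most members, the unknown treatment of reads shared by copies and overlapping genes, and 3 libraries per group. Absence from polyA RNA says nothing of the stem-loop-ended message, which these libraries do not measure.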
